A study of Mus musculus with 4 samples.

Results

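The CXC chemokine genes described here are Cxcl1, Cxcl2, Cxcl5, Cxcl9, Cxcl10, Cxcl12, Cxcl13, Cxcl14 and Cxcl16, 9 of the 22180 mouse genes that could be named on the arrays. They were chosen as members of a family by name, with earlier results of these data known. The set is not the whole family: Cxcl3, Cxcl11, Cxcl15, Cxcl17, Pf4 and Ppbp were measured but are not members. Each of the 9 had 1 probe set with a single gene symbol, so no choice between probe sets arose. RNA came from primary osteoblast cultures grown from the calvaria of newborn mice for 21 days in medium with ascorbate and glycerol phosphate. The Runx3f/f/Col1a1-cre group carries floxed Runx3 alleles and a cre transgene named for Col1a1, a gene of type I collagen producing cells, and the other group is wild type (WT). Each group has 2 arrays, 1 per culture, numbered biological replicate 1 and 2. The sources used here do not state strain, sex, the number of pooled pups, or whether the wild-type mice carried cre or floxed alleles.

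CXC chemokines are small secreted proteins, named for a pair of conserved cysteines with a single residue between them, that guide cells along a gradient through G-protein coupled receptors. CXCL1, CXCL2 and CXCL5 draw neutrophils through CXCR2, CXCL9 and CXCL10 draw activated T cells through CXCR3, and CXCL13 draws B cells through CXCR5. In bone, CXCL12 made by osteoblasts and reticular stromal cells holds haematopoietic stem cells in the marrow through CXCR4. CXCL16 is made as a membrane protein that is shed and bound by CXCR6, and CXCL14 is made by many epithelial and stromal cells.

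Levels are the values the authors deposited, taken to be on a log2 scale, so that a difference of 1 is a doubling of signal. The 4 arrays differ by replicate number: the median of the 17841 tested genes was 7.53 on each array of replicate 1 and 7.81 on each of replicate 2, and all 9 chemokine genes read higher on the replicate 2 array in both groups. Differences are therefore given within each replicate number as well as over all 4 arrays. The mutant-labelled and wild-type arrays of a number also hold exactly equal values, with no tolerance, in 35.8% of tested genes for replicate 1 and 50.2% for replicate 2; the sources used here do not say how these arose. Runx3 itself read 7.94 and 8.06 on the mutant-labelled arrays against 7.45 and 7.87 in wild type, so its probe set was not lower in the group named for its deletion. The sources used here do not name the floxed exons, so this probe set may not check the deletion, and the group is called mutant-labelled below. All 8 osteoblast markers measured lay above the detection floor of 4.71 on all 4 arrays, from Col1a1 at 13.45 to 13.57 down to a dim Bglap at 5.19 to 6.06. The tissue tag of the labels reads myoblast, and of the myoblast markers Myod1 ran from 5.45 to 6.42, Myog from 5.95 to 6.72 and Des from 7.59 to 8.24.

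Of the 9 genes, Cxcl1 and Cxcl14 were higher on the mutant-labelled array by 1.5-fold or more within both replicates, Cxcl2 was lower by that much within both, and the other 6 were less than 1.5-fold apart within either replicate. Among all tested genes 1.47% were that much higher and 1.15% that much lower. All 9 genes passed the floor, which asks for at least 2 of 4 arrays above it, although Cxcl9 did so only through replicate 2. In limma across all genes 0 of the 9 passed an adjusted p of 0.05, and 0% of the 17841 tested genes did, with 0.312 as the smallest adjusted p. At an unadjusted p of 0.05 the call fell on 1 of the 9, Cxcl2, against 3.96% of all tested genes. With the replicate number as a block it fell on 5 (Cxcl1, Cxcl2, Cxcl5, Cxcl12 and Cxcl14), against 13.0% of all tested genes. The block fit gives a small SE wherever the within-replicate differences agree, however small they are. Cxcl5 was thus called at -0.08 (block SE 0.0017) although its groups overlapped. Genes exactly equal within both replicates, 25.7% of those tested, have no residual spread in that fit. The median difference over the 9 genes was 0, as was that over all tested genes.

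**Figure D1:**
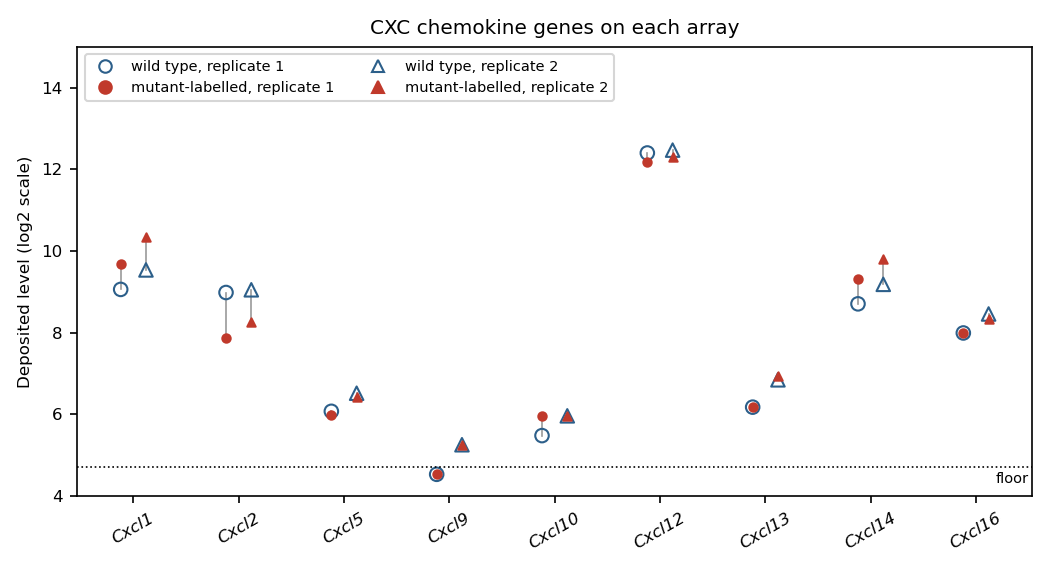
Deposited level (log2 scale, vertical axis) of each CXC chemokine gene (horizontal axis) on each of the 4 arrays, with circles for replicate 1 and triangles for replicate 2, open symbols for wild type and filled ones for mutant-labelled, a line joining the arrays of a replicate number and a dotted line at the detection floor of 4.71. Filled symbols lie above open ones in both replicates for Cxcl1 and Cxcl14. They lie below them in both for Cxcl2, Cxcl12 and, by a small margin, Cxcl5, and Cxcl9 symbols coincide in both.

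Cxcl1 and Cxcl2, close paralogues that lie next to each other on chromosome 5 and encode ligands of the same receptor, CXCR2, differed in opposite directions. Cxcl1 (probe set 17438987) read 9.68 and 10.34 on the mutant-labelled arrays of replicates 1 and 2, against 9.06 and 9.54 in wild type. Both mutant-labelled arrays lay above both wild-type arrays, with differences of 0.62 within replicate 1 and 0.80 within replicate 2, or 1.53-fold and 1.74-fold. Over all arrays the difference was 0.71 (SE 0.33, 95% interval -0.24 to 1.66, limma adjusted p = 1), with group means of 10.01 ± 0.47 and 9.30 ± 0.34 (SD, n = 2). Leaving out single arrays moved it between 0.38 and 1.04.

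Cxcl2 (probe set 17438995), which activated macrophages make in quantity, read 7.88 and 8.26 on the mutant-labelled arrays against 8.99 and 9.05 in wild type. The mutant-labelled arrays lay below both wild-type arrays, by 1.11 within replicate 1 and 0.80 within replicate 2 on the log2 scale, or 2.15-fold and 1.74-fold. Over all arrays the difference was -0.95 (SE 0.18, 95% interval -1.49 to -0.42), with means of 8.07 ± 0.27 and 9.02 ± 0.05 (SD, n = 2). Its limma p was 0.0090 before adjustment and 0.674 after it.

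The change in Cxcl1 relative to Cxcl2 was 1.72 within replicate 1 and 1.59 within replicate 2, a 3.16-fold shift of one against the other on average. With 2 arrays a group an exact permutation test over arrays (two-sided) gave p = 0.333, the smallest value this design allows. The same comparison for Cxcl14 against Cxcl2 gave 1.72 and 1.43, and Cxcl1 and Cxcl14 differed from each other by 0.0057 and 0.17. The exact permutation p was 0.333 for each of these pairs too, so the test cannot separate a large contrast from a small one here. Cxcl1 and Cxcl2 are also the members with the largest mean rise and fall in these same values.

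The sequences upstream of both genes are shown because the pair shares a kappaB element, the site bound by NF-kB, which drives these genes in inflammation, while the arrays put the pair on opposite sides. The 250 bases before each RefSeq gene start (build GRCm38.p6) come from chr5:90890995-90891244 for Cxcl1 and chr5:90903649-90903898 for Cxcl2, both on the plus strand. Capitals mark matches to the kappaB letters GGAATTTCC, chosen after the sequences had been read.
Cxcl1: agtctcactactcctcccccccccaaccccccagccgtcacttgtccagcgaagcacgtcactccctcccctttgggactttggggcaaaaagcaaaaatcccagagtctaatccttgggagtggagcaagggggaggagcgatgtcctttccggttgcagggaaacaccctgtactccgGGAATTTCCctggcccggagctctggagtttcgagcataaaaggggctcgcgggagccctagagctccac
Cxcl2: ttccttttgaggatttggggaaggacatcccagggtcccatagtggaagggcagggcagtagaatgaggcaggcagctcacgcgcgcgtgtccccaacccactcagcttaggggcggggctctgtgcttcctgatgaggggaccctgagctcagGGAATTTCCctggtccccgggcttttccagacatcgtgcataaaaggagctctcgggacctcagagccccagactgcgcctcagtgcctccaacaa
The match begins 70 bases before the start of Cxcl1 and 96 bases before that of Cxcl2, and it lies in a run of 14 bases identical in both, the longest they share. On either strand the letters occur in 0.286% of 32851 promoters of this length and in 3 of the 7 member promoters found in the RefSeq table (Cxcl1, Cxcl2 and Cxcl10). The core letters of Runt factor sites, TGTGGT or TGCGGT on either strand, were in neither of these windows. Among the 7 member promoters TGTGGT was in that of Cxcl9 alone and TGCGGT in 0, against 14.0% and 5.1% of all promoters. The promoters of Cxcl5 and Cxcl16 are not used here. A match to letters describes the sequence and does not show that a factor binds.

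In the RefSeq gene table the order of CXC ligand genes in this chromosomal neighbourhood is Cxcl5, Ppbp, Pf4, Cxcl3, Cxcl15, Cxcl1 and Cxcl2. Cxcl5, a further CXCR2 ligand, read 5.996 and 6.44 on the mutant-labelled arrays against 6.08 and 6.52 in wild type, and the groups overlapped. Its difference was -0.08 within either replicate and over all arrays (95% interval -0.84 to 0.68, limma adjusted p = 1). Pf4, the platelet chemokine CXCL4, which is no member of the set but its neighbour, read 5.02 and 4.70 against 6.20 and 5.74, lower by 1.18 and 1.03 on the log2 scale, without overlap; its mutant-labelled replicate 2 value lies just below the floor, so that difference is partly against background. Ppbp differed by -0.18 and -0.13. The other platelet markers measured were close to equal, Itga2b at 0.04 and 0 and Gp9 at -0.08 and 0. Cxcl3 and Cxcl15 lay below the floor on all 4 arrays.

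**Figure D2:**
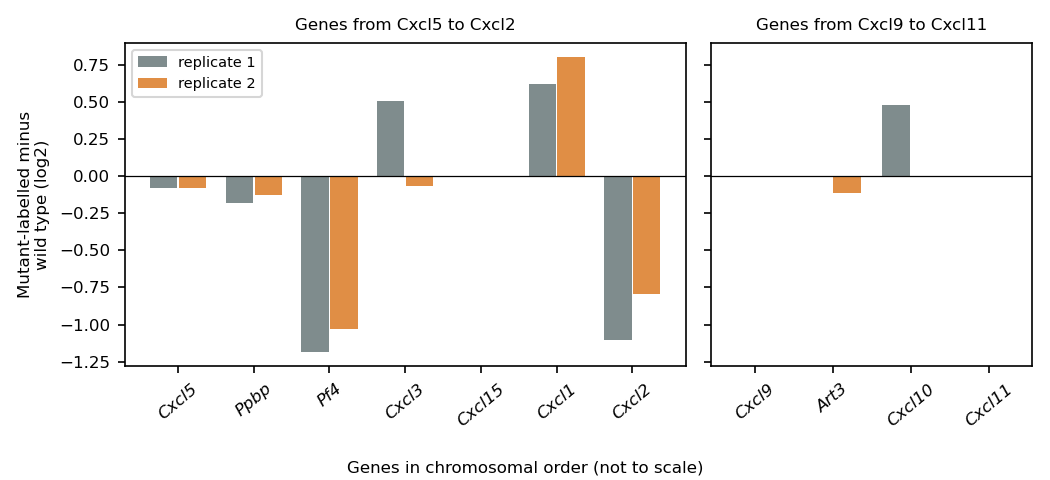
Difference between mutant-labelled and wild-type arrays (log2, vertical axis) within replicate 1 (grey bars) and replicate 2 (orange bars) for neighbouring genes on chromosome 5 in chromosomal order, not to scale. Cxcl1 bars point up (0.62 and 0.80) beside Cxcl2 bars that point down (-1.11 and -0.80), and the genes from Cxcl9 to Cxcl11 have bars at or near 0 except Cxcl10 in replicate 1.

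The interferon-induced ligands Cxcl9 and Cxcl10 were dim. Cxcl9 read 4.53 on each array of replicate 1, below the floor of 4.71, and 5.26 on each array of replicate 2, where Cxcl11, a neighbour that the RefSeq table lists as a pseudogene, held the same 5.26. Cxcl9 was thus exactly equal between groups within both replicates, as were 25.7% of all tested genes, and such equality does not show that the gene was unaltered. Cxcl10 read 5.96 on both mutant-labelled arrays against 5.48 and 5.96 in wild type. Its lone low value was wild-type replicate 1, so that the difference was 0.48 within replicate 1 and exactly 0 within replicate 2 (0.24 over all arrays, 95% interval -0.39 to 0.86, limma adjusted p = 1). Without that array the difference was -0.0045.

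The upstream sequences of Cxcl10 and Cxcl14 are shown because both hold letters of an interferon regulatory factor site, GAAANNGAA, which 7.13% of all promoters of this length hold on either strand, as did 3 of the 7 member promoters (Cxcl9 as well). They come from chr5:92348890-92349139 and chr13:56296552-56296801 of GRCm38.p6, both on the minus strand and read in the direction of the gene. Capitals mark these letters and, in Cxcl10, the kappaB letters on the opposite strand, which begin 158 bases before the gene start.
Cxcl10: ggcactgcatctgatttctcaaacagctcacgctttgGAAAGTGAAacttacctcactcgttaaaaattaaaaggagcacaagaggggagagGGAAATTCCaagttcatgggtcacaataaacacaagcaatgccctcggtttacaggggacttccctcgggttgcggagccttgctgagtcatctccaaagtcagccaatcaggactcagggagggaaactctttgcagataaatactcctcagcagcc
Cxcl14: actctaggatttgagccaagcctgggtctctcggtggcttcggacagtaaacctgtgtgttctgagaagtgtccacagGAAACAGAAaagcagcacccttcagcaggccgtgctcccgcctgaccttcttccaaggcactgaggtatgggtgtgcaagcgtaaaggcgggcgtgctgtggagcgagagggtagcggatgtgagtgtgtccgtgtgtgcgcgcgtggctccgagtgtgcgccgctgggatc
The interferon letters begin 213 bases before the start of Cxcl10 and 172 bases before that of Cxcl14. Cxcl14 held no match to the kappaB letters.

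Cxcl12, the stem cell niche chemokine, read 12.19 and 12.29 on the mutant-labelled arrays against 12.40 and 12.47 in wild type. The groups did not overlap, but the difference was small, at -0.21 within replicate 1 and -0.18 within replicate 2, or 1.16-fold and 1.13-fold. Over all arrays it was -0.20 (SE 0.12, 95% interval -0.56 to 0.16, limma adjusted p = 1). It lay far above the floor on all 4 arrays and had the smallest spread between wild-type arrays after Cxcl2 (SD 0.050).

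Cxcl14 (probe set 17293006), on chromosome 13, read 9.32 and 9.82 on the mutant-labelled arrays against 8.71 and 9.19 in wild type. The mutant-labelled arrays were the higher ones, and the differences of 0.61 and 0.63 were the most alike between replicates of any member that was 1.5-fold apart. Over all arrays the difference was 0.62 (SE 0.28, 95% interval -0.20 to 1.45, limma adjusted p = 1), with means of 9.57 ± 0.35 and 8.95 ± 0.34 (SD, n = 2). Both within-replicate values lie close to the 1.5-fold threshold of 0.585, and leaving out single arrays moved the difference between 0.37 and 0.87.

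Cxcl13, the B cell attractant, read 6.18 on both arrays of replicate 1 and 6.93 (mutant-labelled) and 6.85 (wild type) on those of replicate 2. Its difference of 0.04 (95% interval -1.11 to 1.19) was far below its gap between replicate numbers, 0.67 in wild type. Cxcl16, the transmembrane chemokine, read 7.99 on both arrays of replicate 1 and 8.34 against 8.46 in replicate 2, a difference of -0.06 over all arrays (95% interval -0.78 to 0.65). Both genes had overlapping groups and exactly equal values in replicate 1. Adam10 and Adam17, which encode sheddases of membrane proteins, differed by -0.09 and 0 within replicate 1 and by 0 within replicate 2.

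Arrays of the groups did not overlap for 4 of the 9 genes. In all tested genes 7.66% had both mutant-labelled arrays above both wild-type arrays and 9.25% had both below. The chemokine genes had 2 in each direction, Cxcl1 and Cxcl14 higher, Cxcl2 and Cxcl12 lower.

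**Figure D3:**
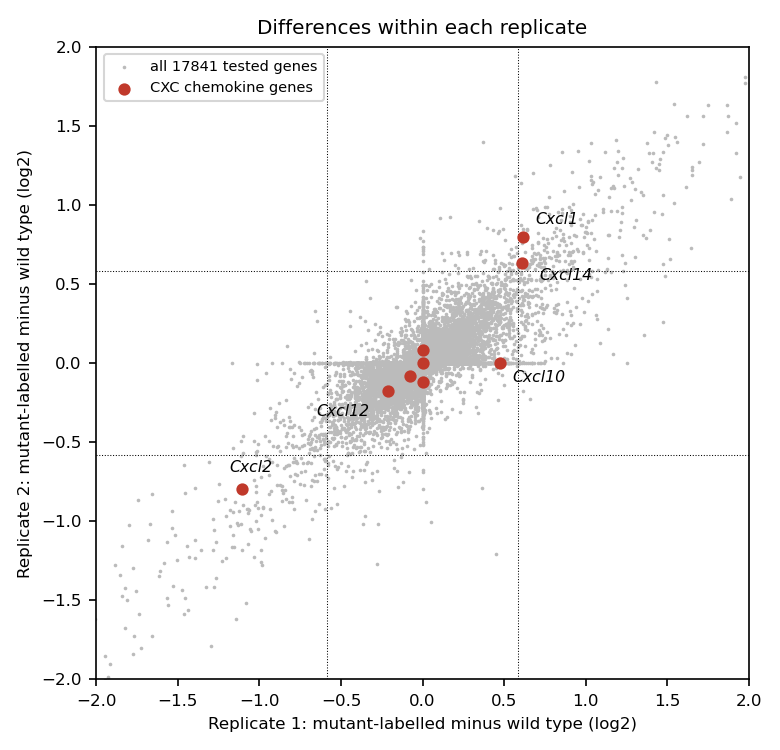
Difference between mutant-labelled and wild-type arrays (log2) within replicate 1 (horizontal axis) and replicate 2 (vertical axis) for all tested genes (grey) and the 9 CXC chemokine genes (red), with dotted lines at 1.5-fold; 59 genes beyond 2 log2 units are outside the plot. Cxcl1 and Cxcl14 lie in the upper right corner past both lines, Cxcl2 in the lower left, and the rest inside.

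The genes with patterns most like those of Cxcl2 and Cxcl1 were sought by the Euclidean distance between within-replicate differences, over 4 arrays. Nearest to Cxcl2 were Cygb (distance 0.085), Slco2a1, Slc2a12, Ptprc and Mme (0.105). Cygb, the nearest, was at -1.02 within replicate 1 and -0.81 within replicate 2. Ptprc, the pan-leukocyte marker CD45, was farther off (0.097), at -1.15 within replicate 1 and -0.88 within replicate 2. Its mutant-labelled values of 4.77 and 4.60 lie near the floor of 4.71, so its difference is partly against background. Nearest to Cxcl1 were D730003I15Rik (0.018), Smoc1, Cdh10, Kcne2 and Adam30 (0.052), and 0 of these 10 genes belonged to the chemokine set.

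Markers of macrophages were lower on the same arrays as Cxcl2. All 10 markers on the list were lower within both replicates, 8 of them by at least 1.5-fold (Mrc1, the mannose receptor, by 2.89 and 2.97 on the log2 scale), with a list median of -1.20 against 0 for all tested genes. Their signal, unlogged and summed, was 2220 and 2376 on the mutant-labelled arrays against 6609 and 6876 in wild type. None of the 10 was below the floor on all 4 arrays, and Ptprc alone dipped below it, at 4.60 on mutant-labelled replicate 2. Their part in the Cxcl2 difference was not tested, and in whole cultures fewer cells of a type and less RNA per cell cannot be told apart. Neutrophil markers, in contrast, were dim throughout: 4 of 8 were below the floor on all 4 arrays, S100a8 among them at 3.41 on each array of replicate 1 and 4.04 on each of replicate 2. Their summed signal was 147.5 and 239.3 against 153.3 and 238.7, and 0 of 8 were 1.5-fold apart within both replicates. Of 8 endothelial markers 2 were 1.5-fold higher within both replicates, as Cxcl1 and Cxcl14 were, and 0 were lower, with a list median of 0.02. They were Cdh5, at 1.70 and 1.27, and Emcn, which read 5.15 and 5.26 against wild-type values of 3.76 and 4.42 that lie below the floor, so that it passed only through the mutant-labelled arrays. The rest of the list did not go with them: Tek differed by 0.58 and -0.02, Pecam1 by -0.15 and 0, and Vwf by 0 and 0.09. Esam differed by 0 and -0.03, and 2 markers were exactly equal within both replicates. The summed signal of the list, in which Cdh5 was the brightest gene, was 653.9 and 729.7 against 349.7 and 514.3. Its part in the Cxcl1 and Cxcl14 differences was not tested. Of 8 osteoblast markers 3 were 1.5-fold lower within both replicates (Ibsp, Dmp1 and Phex) and 0 were higher. The rest were less far apart: Bglap differed by -0.57 and -0.50, Sp7 by 0.29 and 0.08, Alpl by -0.07 and 0, and Col1a1 by -0.02 and 0. Of the 5 lymphocyte markers measured 0 were 1.5-fold apart within both replicates. Their summed signal was 159.8 and 185.1 against 156.9 and 185.1. For all these lists, the shares over all tested genes were 1.47% higher and 1.15% lower at 1.5-fold within both replicates.

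**Figure D4:**
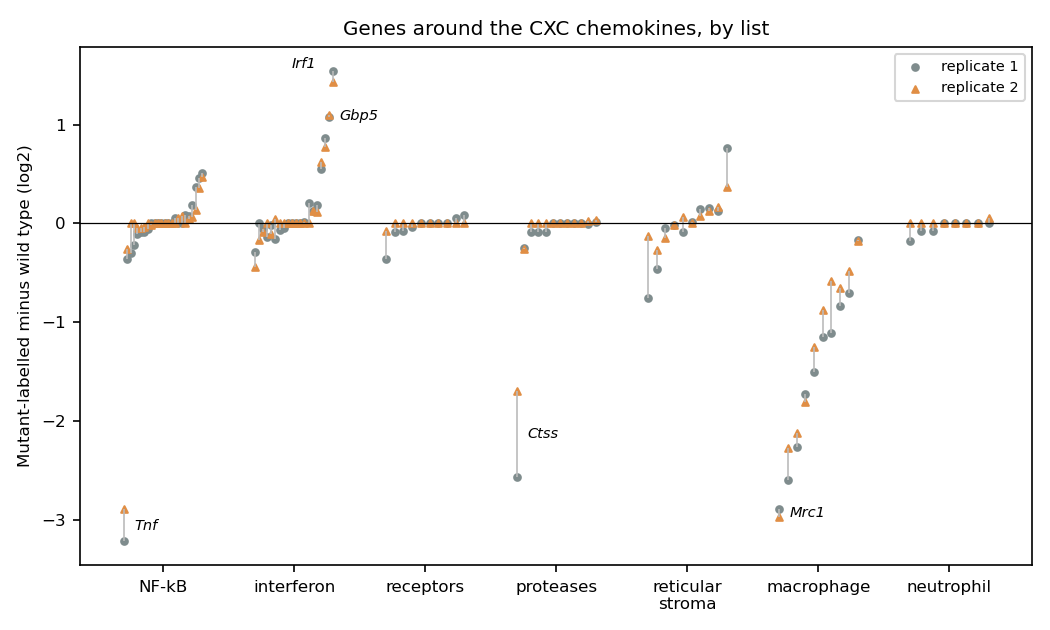
Difference between mutant-labelled and wild-type arrays (log2, vertical axis) within replicate 1 (grey circles) and replicate 2 (orange triangles) for each measured gene of 7 lists (horizontal axis), with genes ordered by mean difference inside a list and a line joining the replicates. Tnf, Ctss and all macrophage markers lie below 0, Irf1 and Gbp5 above it, and the receptors near 0.

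Receptors of these ligands were little apart between groups, as were most tested genes. Of 10 receptor and decoy receptor genes 0 were 1.5-fold apart in either direction within both replicates. Among all tested genes 1.47% were that much higher and 1.15% that much lower. Exactly equal within both were 4 of the 10, against 25.7% of all tested genes, and such equality does not show that a gene was unaltered. Cxcr4, the receptor of CXCL12, read 7.03 and 7.26 on the mutant-labelled arrays against 7.39 and 7.34, differing by -0.36 within replicate 1 and -0.08 within replicate 2. Cxcr2, the receptor of CXCL1 and CXCL2, was equal between groups, at 6.24 in replicate 1 and 6.12 in replicate 2. Cxcr3 differed by -0.03 and 0, Cxcr5 by -0.08 and 0, Cxcr6 by -0.08 and 0, and the CXCL12 decoy receptor gene Ackr3 by 0.09 and 0. Among 12 protease genes Ctss, a lysosomal cathepsin of antigen-presenting cells, was the only one past 1.5-fold within both replicates, at -2.56 and -1.70. Dpp4, whose product clips CXCL12, was equal between groups and read 4.00 in replicate 1 and 5.16 in replicate 2.

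Signals known to induce these chemokines were mixed. Of 24 measured NF-kB pathway genes 1 was 1.5-fold lower within both replicates and 0 were higher, against 1.15% and 1.47% of all tested genes. The lower gene was Tnf, a macrophage cytokine that induces CXC chemokines. Tnf read 6.43 and 6.38 on the mutant-labelled arrays against 9.65 and 9.27 in wild type. Nfkbia and Bcl3, feedback genes of the pathway, were higher by less than 1.5-fold, Nfkbia by 0.46 and 0.36 and Bcl3 by 0.51 and 0.47. Rela and Rel, which encode NF-kB subunits, differed by -0.09 and -0.05 and by 0 and 0.06. Of the 24 genes 2, Il1a among them, lay below the floor on all 4 arrays, so a change in them could not be read. Another 6 genes of the list were exactly equal within both replicates.

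Of 20 measured interferon pathway genes 3 were 1.5-fold higher within both replicates and 0 were lower, against 1.47% and 1.15% of all tested genes. The 3 higher genes were Irf1 (1.55 and 1.43), Gbp5 (1.08 and 1.09) and Stat2 (0.87 and 0.77). Irf1 is an interferon-induced transcription factor, Gbp5 encodes a guanylate-binding protein and Stat2 a transducer of interferon signals. With differences of any size counted, 6 of the 20 were higher and 3 lower within both replicates. Another 3 were exactly equal within both, and the list median was 0. Irf8 differed by -0.29 and -0.44. Irf1 read 9.95 and 10.62 on the mutant-labelled arrays against 8.40 and 9.19. Cxcl10 was higher by 0.48 within replicate 1 and equal within replicate 2. Cxcl9 was equal within both replicates, and below the floor in replicate 1. Such exact equality does not show that a gene was unaltered. The transcript of Ifng itself was dim, at 4.72 and 5.12 against 4.86 and 5.12. In limma 0 of these genes passed after adjustment over all genes.

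Of 10 genes of CXCL12-abundant reticular stroma 0 were 1.5-fold apart within both replicates. Il7, the lymphocyte growth factor gene, had the largest mean difference, at 0.76 and 0.37, and its wild-type replicate 1 value lay just below the floor. Foxc1, a transcription factor of these cells, differed by 0.15 and 0.12, Ebf3 by -0.46 and -0.27, and Kitl, the stem cell factor gene, by -0.76 and -0.12. Lepr, the leptin receptor that marks these cells, differed by -0.08 and 0.07.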

How the data were processed

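Total RNA of 4 osteoblast cultures was measured on 1 array each. The authors deposited normalized values that are taken to be log2; Partek and RMA stand in the submitters' processing notes, and the sources used here do not state the log base, the probe summary or how arrays were combined. The deposited values run from 2.26 to 14.1, and precision is limited by 2 arrays a group, and p-values measure the spread between these arrays. Rows were named through the platform annotation (41345 rows, 23521 with 1 symbol), and the brightest row was kept per gene. Genes entered the test where 2 or more arrays lay above the 90th percentile (4.71) of 1405 olfactory and vomeronasal receptor rows. The comparison used limma 3.58.1 in R 4.3.3 (lmFit, eBayes, group only, Benjamini-Hochberg over 17841 genes). On simulated data its mean estimate was checked, while the recovery of changed genes was checked only with the replicate block. Named were all 9 members, their receptors and, per list, some of the 6 members with the largest mean differences; Col1a1, Myod1, Myog, Dpp4, Rela, Rel, Lepr, Foxc1, S100a8, Ifng, Adam10, Adam17 and the neighbours were named for their role. The members and lists were chosen with earlier results of these data known. Alternatives covered the floor, normalization, probe sets, variance model, replicate block and single arrays left out.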

Additional observations from a re-analysis of the deposited data

How the results depend on the processing

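Each member has 1 probe set, so changing the floor, probe sets or variance model, or adding the block alone, could not change its difference. Under those settings direction was fixed in advance, and only the side of the threshold could move. Of 98 member values under alternatives, these included, 82 kept direction (or stayed at 0) and side of the threshold. Another 9 turned sign, 1 newly passed, and 6 of Cxcl9 moved off exactly 0. The one that passed was Cxcl14 at 0.60 (adjusted p = 0.0461) with the replicate block and quantile normalization again, a setting in which 1 of the 9 members and 399 genes passed. With the replicate block alone 0 genes passed after adjustment and 2319 before it, and with an intensity trend 49 passed the adjusted one. The labels do not say that a replicate number marks a shared litter or day; deviations of same-numbered arrays from their group means correlated across genes at r = 0.92, which equal values raise. Genes at an unadjusted p of 0.05 numbered 1304 after quantile normalization again, 3587 with the block added, and 276 to 420 with an array left out, where 1 residual degree of freedom replaces 2. With the trend they numbered 1033, against 707 in the main fit. Of the 9 members 1 had an unadjusted p under 0.05, 3 after quantile normalization again or with the trend, and 5 with the block under either normalization.

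Cxcl13 turned to -0.0050 after quantile normalization again, with or without the block. Leaving out arrays gave -0.30 to 0.14 for Cxcl5, -0.0045 to 0.48 for Cxcl10, -0.36 to 0.36 for Cxcl9, -0.33 to 0.42 for Cxcl13 and -0.29 to 0.17 for Cxcl16, where the median of all tested genes ran from -0.16 to 0.15 because the replicate offset enters the difference. Members 1.5-fold higher within both replicates were 1 after quantile normalization again, since Cxcl14 read 0.58 in replicate 1; at 2-fold 0 were higher and 0 lower. At 1.5-fold, 2 were higher and 1 lower within either replicate read alone, a setting added after the data were seen. Shares over all tested genes were counted only at 1.5-fold within both replicates of the deposited values (1.47% higher, 1.15% lower). The member counts under the other settings therefore have no share beside them. Cxcl9, near the floor, was untested where the floor was the median over all rows.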

Other observations

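Values recur within an array as well as between arrays. Over the 22180 named genes each array held from 14116 to 14548 distinct values, and Cxcl9 and Cxcl11 shared 5.26 on both arrays of replicate 2, while they read 4.53 and 4.14 on both arrays of replicate 1. The sources used here do not say how values came to recur. Cx3cl1, a membrane-bound chemokine outside the CXC family, read 11.42 and 10.78 on the mutant-labelled arrays against 11.15 and 10.60 in wild type, differing by 0.27 and 0.18, and it was lower in replicate 2, unlike all 9 CXC members.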
